A study of Mus musculus with 4 samples.

Results

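The genes described here were the 8 homeobox genes Msx1, Msx2, Dlx1, Dlx2, Dlx3, Dlx4, Dlx5 and Dlx6. They were chosen by symbol out of the 19465 genes listed in the deposited count matrices, and all 8 were listed and had counts. Their expression was measured across 6357 tissue spots of mouse heads by Visium, a spatial method in which fixed tissue lies on an array of barcoded spots and captured molecules are counted by their unique molecular identifiers (UMIs). The heads were wild-type, of the C57BL/6J strain per the study's methods and untreated. By their labels the 2 groups differed in stage only, embryonic day (E) 14.5 or E15.5. The areas also differed in depth and in the share of UMIs from forebrain and cortical spots, as given below, and stage cannot be told apart from these. Each stage had 2 capture areas, 1 holding a single coronal section (replicate 1) and 1 holding 3 sections in a single library (replicates 2,3,4). The capture area was therefore the sample in every test, and the 3 sections of a shared area are called A, B and C, because which of them is replicate 2, 3 or 4 is not given in the sources used here. The study describes its spatial experiments as biologically replicated, but the labels do not say which areas or sections came from separate embryos, so p-values measure the spread between areas, part of which may be technical.

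Msx and Dlx genes encode homeodomain transcription factors. In the head, Msx1 and Msx2 are known as targets of bone morphogenetic protein (BMP) signalling in jaw mesenchyme, tooth germs and the bones of the skull. Dlx genes lie in convergently transcribed pairs, Dlx1 with Dlx2, Dlx3 with Dlx4 and Dlx5 with Dlx6, and their nested expression sets the upper and lower identity of the jaws. Dlx1, Dlx2, Dlx5 and Dlx6 also act in the ventral forebrain, where they direct precursors of neurons that use the transmitter GABA, whereas Dlx3 is known for its roles in skin, teeth and bone.

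In the mouse genome (GRCm38, GENCODE M21), Msx1 lies on the minus strand at chr5:37820485-37824583 and Msx2 on the minus strand at chr13:53466884-53473074. The gap between the genes of a pair was 9426 bases for Dlx1 (chr2:71528113-71533981, plus) and Dlx2 (chr2:71543408-71546754, minus), 15150 bases for Dlx3 (chr11:95120119-95125296, plus) and Dlx4 (chr11:95140447-95146263, minus), and 9236 bases for Dlx6 (chr6:6863334-6868568, plus) and Dlx5 (chr6:6877805-6882085, minus). Promoter sequence from RefSeq (GRCm38.p6) was at hand for 4 of the 8 genes, Dlx1, Dlx2, Msx1 and Msx2. They are shown because both genes of each of these pairs were compared between head tissues here. Each run is the 250 bases before the start that RefSeq annotates, 5′ to 3′ on the gene's strand, at chr2:71529195-71529444 (Dlx1), chr2:71546755-71547004 (Dlx2), chr5:37824586-37824835 (Msx1) and chr13:53472781-53473030 (Msx2). The RefSeq starts of Dlx1 and Msx2 lie inside the GENCODE genes given above, so these runs overlap the longer GENCODE gene. Capitals mark TAATTA, the core motif that Msx and Dlx homeodomains bind, and the CCAAT box (ATTGG on the other strand), both searched on both strands.
Dlx1: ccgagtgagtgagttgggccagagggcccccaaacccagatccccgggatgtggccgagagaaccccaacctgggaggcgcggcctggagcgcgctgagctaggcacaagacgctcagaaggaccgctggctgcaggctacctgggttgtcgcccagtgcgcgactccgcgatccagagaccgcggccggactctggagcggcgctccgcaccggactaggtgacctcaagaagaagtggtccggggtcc
Dlx2: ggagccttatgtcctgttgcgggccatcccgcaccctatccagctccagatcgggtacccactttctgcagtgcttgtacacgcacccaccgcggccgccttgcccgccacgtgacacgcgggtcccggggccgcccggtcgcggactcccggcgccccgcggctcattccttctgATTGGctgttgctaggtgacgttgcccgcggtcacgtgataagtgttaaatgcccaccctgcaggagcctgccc
Msx1: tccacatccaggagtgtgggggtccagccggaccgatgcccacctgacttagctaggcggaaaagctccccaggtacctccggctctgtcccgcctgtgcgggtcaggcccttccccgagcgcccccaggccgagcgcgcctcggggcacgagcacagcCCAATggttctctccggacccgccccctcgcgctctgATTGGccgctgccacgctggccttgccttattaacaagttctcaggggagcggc
Msx2: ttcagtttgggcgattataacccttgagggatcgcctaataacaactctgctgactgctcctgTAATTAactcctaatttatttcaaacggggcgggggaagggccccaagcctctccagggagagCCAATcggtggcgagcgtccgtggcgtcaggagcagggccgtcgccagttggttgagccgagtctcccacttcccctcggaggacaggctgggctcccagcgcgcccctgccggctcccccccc
TAATTA occurred once, in the Msx2 promoter, 187 bases before the start, and 4.84% of 32851 promoters of this length held it. The CCAAT box occurred 2 times in Msx1, once in Dlx2, once in Msx2 and not in Dlx1, and 33.8% of promoters held it. GC content was 61.6% to 68% in these promoters against a median of 52.4% over all promoters. A match describes letters only and is not a binding site.

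The areas held 1106, 2310, 989 and 1952 tissue spots, in the order E14.5 replicate 1, E14.5 replicates 2,3,4, E15.5 replicate 1 and E15.5 replicates 2,3,4, which is used for all values given by area below. Their totals were between 15438992 and 109127953 UMIs, and the median per spot was 6752 UMIs in E14.5 replicate 1 and 45058.5 to 64051 UMIs in the other areas. Among the members, UMIs over all spots numbered 55046 for Dlx5, 20544 for Dlx6, 18845 for Msx1, 6624 for Dlx2, 5404 for Msx2, 4694 for Dlx1, 4645 for Dlx3 and 388 for Dlx4. These totals are not scaled by transcript length or probe number, so levels are compared between tissues for a gene and not between genes.

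Spots were assigned to tissues by 13 marker lists, none of which held a member, through a score of the markers relative to the mean of the section. A spot can cover several cells of different types, so a region is named here as the spots high in a marker list, and in such pooled spots fewer cells of a type and less RNA per cell cannot be told apart. Regions were assigned to 5181 spots, of which 154 were high in tooth germ markers, 389 in oral and jaw mesenchyme markers, 593 in bone markers and 670 in forebrain GABAergic markers. Summed bone markers were 5884 to 9641 CPM (counts per 1000000 UMIs) in bone spots by area and 101 to 806 CPM in forebrain spots, and summed GABAergic markers were 1015 to 1394 CPM in forebrain spots and 14.3 to 51.8 CPM in tooth spots. Tooth spots also held 909 to 1038 CPM of oral and jaw mesenchyme markers, close to the 983 to 1197 CPM of oral mesenchyme spots, and the part of each in the levels of tooth spots was not tested. In 1 section, E15.5 section B, the 19 spots that passed the forebrain score held 181 CPM of GABAergic markers against 1038 to 1394 CPM in the other sections and do not bear their label. The 3 and 7 tooth spots of E15.5 sections A and C held 567 and 539 CPM of tooth markers against 1338 to 1864 CPM elsewhere.

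**Figure D1:**
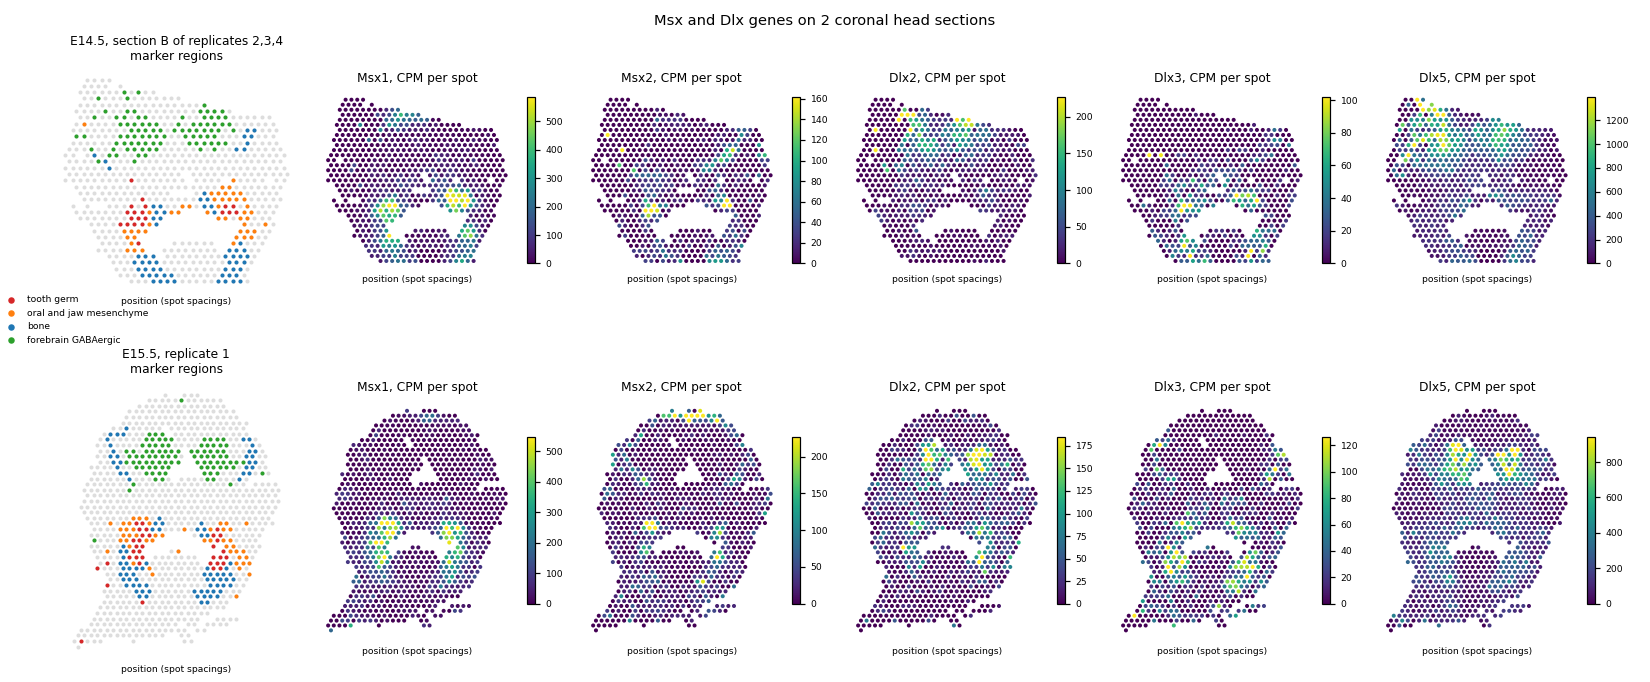
Spots of 2 sections (E14.5 section B and E15.5 replicate 1) drawn at their array positions, colored by marker region in the first panel and by CPM per spot of Msx1, Msx2, Dlx2, Dlx3 and Dlx5 in the others, with the color scale ending at the 99th percentile. Msx1 is high in the tooth and oral spots, Msx2 in tooth spots and, in the E15.5 section, along the top edge of the head, Dlx3 in the bone spots, and Dlx2 and Dlx5 in the forebrain GABAergic spots.

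**Figure D2:**
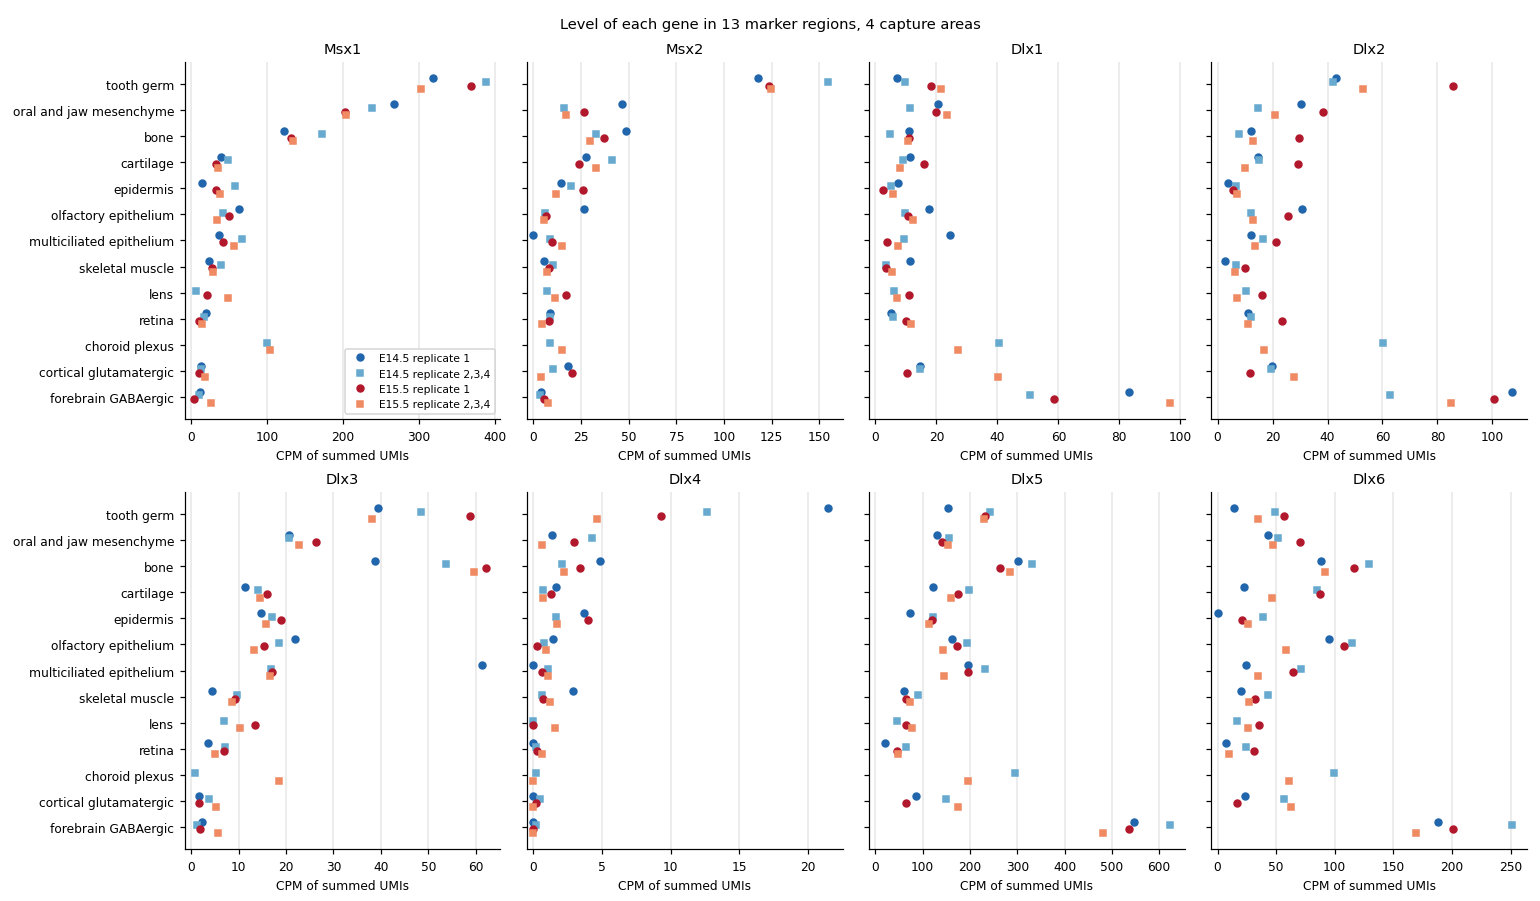
CPM of the 8 genes (horizontal axes, each gene on its own linear scale) in the spots of 13 marker regions (vertical axes), with 1 point for each of the 4 capture areas. Msx1 and Msx2 peak in tooth germ spots, whereas Dlx1, Dlx2, Dlx5 and Dlx6 peak in forebrain GABAergic spots.

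Spots high in tooth germ markers carried the highest levels of both Msx genes, and of the Dlx genes Dlx2, Dlx3 and Dlx4 were higher there than in the rest of the tissue. Each region was compared with all other tissue spots by edgeR's quasi-likelihood test with Benjamini-Hochberg adjustment over all genes, with the capture area as a block, and adjusted p under 0.1 counted as passing. In tooth spots 6 of 8 members passed against 33.9% of the 13448 genes tested. Of these, 5 were higher against 15.2% of all genes and 1 was lower against 18.7%. The median log2 difference of the 8 members was 1.46 beside 0.0058 over all genes.

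Msx1, required for tooth development beyond the bud stage, was measured at 318, 388, 369 and 302 CPM in tooth spots and at 41.2, 64.8, 43.1 and 64.3 CPM in all other spots. Tooth spots were higher in every area, without overlap, by 2.68 on the log2 scale (SE 0.14, edgeR adjusted p = 1.21e-06). Msx2, which acts in the enamel knot and ameloblast lineage, was measured at 118, 154, 123 and 125 CPM against 19.0, 14.7, 17.0 and 15.2 CPM. Its difference of 3.02 (SE 0.13, adjusted p = 8.73e-07) was close in size to that of Dlx4 at 3.05 (SE 0.38, adjusted p = 0.000245). Dlx4, the least counted member, was at 21.5, 12.7, 9.32 and 4.63 CPM in tooth spots, which rests on 79 UMIs, and at 0.858 to 1.29 CPM elsewhere.

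Dlx2 and Dlx3 were also raised at the tooth. Dlx2, a regulator of molar identity together with Dlx1, was measured at 42.9, 41.9, 85.7 and 53.1 CPM in tooth spots and 37.1, 22.2, 25.9 and 17.6 CPM in the rest (log2 difference 1.28, SE 0.19, adjusted p = 0.000766). Its levels in tooth spots and in the rest did not overlap, although in E14.5 replicate 1 they lay close together. Dlx3, whose loss affects enamel and dentin, was at 39.3, 48.5, 58.9 and 38.1 CPM against 8.25 to 18.4 CPM (1.63, SE 0.18, adjusted p = 9.95e-05).

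Dlx1, Dlx5 and Dlx6 did not pass as higher in the same comparison. Dlx1 stood at 7.15, 9.76, 18.3 and 21.4 CPM in tooth spots and at 29.1, 16.2, 13.5 and 17.6 CPM in the rest, below the rest at E14.5 and above it at E15.5 (-0.09, SE 0.25, adjusted p = 0.840). Dlx6 was lower in tooth spots, at 14.3, 48.8, 57.0 and 34.9 CPM against 68.5, 97.4, 63.4 and 54.0 CPM and below the rest in every area (-0.69, SE 0.18, adjusted p = 0.0182), and without E14.5 replicates 2,3,4 this difference was -0.57 with adjusted p = 0.106. Dlx5, at 154, 243, 232 and 230 CPM, was not separated from the rest (0.21, SE 0.15, adjusted p = 0.324), and without E14.5 replicate 1 it passed at 0.34 with adjusted p = 0.0637.

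The rest of the tissue was not the same in the 4 areas. Spots high in forebrain GABAergic and cortical glutamatergic markers held 52.2%, 22.6%, 22.9% and 10.1% of the UMIs, and the GABAergic spots among them were high in Dlx1, Dlx2, Dlx5 and Dlx6. When both kinds of spot were left out of the rest, a comparison chosen after seeing the data, all 8 members passed in tooth spots against 40.6% of the 12854 genes tested. Dlx1 then passed as higher by 0.67 (adjusted p = 0.0486), although it was above this smaller rest, at 12.95, 9.74, 8.92 and 10.05 CPM, in both E15.5 areas, below it in E14.5 replicate 1 and level with it in E14.5 replicates 2,3,4. Dlx5 was higher by 0.64 (adjusted p = 0.000161) and Dlx2 by 1.92, whereas Dlx6 was lower at -0.34 (adjusted p = 0.0688). By area, Dlx6 was level with the smaller rest in E15.5 replicate 1, at 57.0 against 56.6 CPM, and below it in the others. Its value in E14.5 replicate 1 rests on 4 UMIs. Msx1 at 2.34, Msx2 at 2.88, Dlx3 at 1.33 and Dlx4 at 2.72 kept their direction in the edgeR test. With all spots in the rest but only the sections that held the tooth markers, Msx1 was higher by 2.74 and Msx2 by 3.08.

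**Figure D3:**
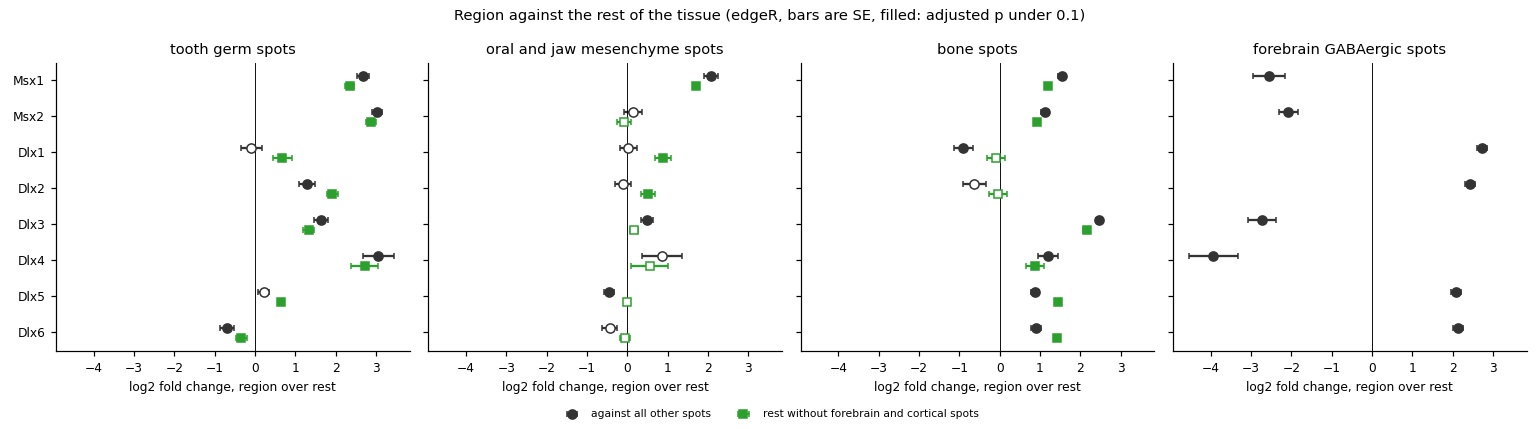
Log2 fold change of each member in the spots of a region over the other spots (horizontal axis, bars show the SE derived from the edgeR F statistic with the capture area as a block), against all other spots (black circles) and against the rest without forebrain GABAergic and cortical glutamatergic spots (green squares), with filled symbols for adjusted p under 0.1. In bone spots the value of Dlx1 moves from -0.90 to -0.10, whereas Dlx3 lies above 2 in both.

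The ratio of the genes within a pair also differed between tooth and forebrain spots. The CPM of Dlx1 divided by that of Dlx2 was 0.233, 0.213 and 0.403 in tooth spots of 3 areas and 0.774, 0.807, 0.581 and 1.14 in forebrain spots, and these ranges did not overlap. E14.5 replicate 1 gives no ratio in tooth spots, with 2 UMIs of Dlx1. Dlx5 divided by Dlx6 was 10.8, 4.98, 4.06 and 6.58 in tooth spots and 2.48 to 2.90 in forebrain spots, again without overlap, and the first of these rests on 4 UMIs of Dlx6. Msx1 divided by Msx2 was 2.42 to 2.99 in tooth spots, 5.71 to 14.99 in oral mesenchyme spots and 1.07 to 1.41 in cartilage spots. These ratios are descriptions and were not tested.

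In spots high in oral and jaw mesenchyme markers, the mesenchyme of palate and jaws, Msx1 was high and Msx2 was not. These spots also held 469 to 638 CPM of tooth markers by area, beside 1547 to 1864 CPM in tooth spots and 185 to 292 CPM in bone spots. The part of tooth tissue in their levels was not tested. Of the 8 members 3 passed, against 38.3% of 13720 genes tested, so the share of members was near that of all genes. The 2 higher members stand against 16.2% of all genes and the 1 lower member against 22%, and the median log2 difference of the members was 0.08. Msx1 was measured at 267, 238, 203 and 203 CPM against 35.3, 61.1, 48.3 and 61.7 CPM in the rest, a difference of 2.07 (SE 0.18, adjusted p = 0.00243), with every area above the rest. Msx2 was at 46.7, 15.9, 26.6 and 17.3 CPM against 18.5 to 20.9 CPM, above the rest in both replicate 1 areas and below it in the other two (0.14, SE 0.22, adjusted p = 0.651).

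Dlx3 passed as higher in oral mesenchyme spots (20.6, 20.6, 26.3 and 22.7 CPM against 8.22 to 18.7 CPM, log2 difference 0.50, SE 0.15, adjusted p = 0.0498), and Dlx5 as lower (129, 155, 140.1 and 154 CPM against 157 to 247 CPM, -0.45, SE 0.12, adjusted p = 0.0326). Both calls depended on single areas and settings. Without E14.5 replicates 2,3,4 the adjusted p was 0.164 for Dlx3 and 0.180 for Dlx5, and without E15.5 replicate 1 it was 0.172 for Dlx3. Dlx6 did not pass as lower (-0.44, adjusted p = 0.117) except without E15.5 replicate 1 (-0.65, adjusted p = 0.0599) and at a region score of 3 (-0.50, adjusted p = 0.0844). At that score Dlx3 did not pass (0.65, adjusted p = 0.106), and without the area block neither Dlx3 (adjusted p = 0.173) nor Dlx5 (adjusted p = 0.108) did. Dlx4 did not pass as higher (0.86, adjusted p = 0.235) except without E15.5 replicates 2,3,4 (1.46, adjusted p = 0.0297). With the forebrain and cortical spots out of the rest, Dlx3 stood at 0.18 (adjusted p = 0.270) and Dlx5 at -0.02 (adjusted p = 0.899). In that comparison the jaw genes Dlx1 and Dlx2 were higher in oral mesenchyme spots, by 0.89 (adjusted p = 0.0152) and 0.52 (adjusted p = 0.0745), and Msx1 by 1.70 (adjusted p = 3.05e-05). Dlx1 was measured there at 20.6, 11.5, 19.8 and 23.5 CPM against 11.9, 9.57, 8.67 and 9.32 CPM in this smaller rest, higher in all 4 areas. Dlx2 was at 30.2, 14.6, 38.4 and 20.8 CPM against 14.6, 15.7, 22.4 and 12.2 CPM, above this rest in 3 areas and slightly below it in E14.5 replicates 2,3,4.

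Bone spots were led by Dlx3. Of the 8 members 7 passed in bone spots against 51.8% of 13879 genes tested, with 6 higher against 24.3% of all genes and 1 lower against 27.5%. The median log2 difference of the members was 1.01 beside -0.03 over all genes. Dlx3, an activator of osteoblast genes, was measured at 38.8, 53.8, 62.2 and 59.7 CPM in bone spots and at 7.12, 10.5, 12.4 and 13.1 CPM in the rest. This was a difference of 2.46 (SE 0.085, adjusted p = 9.67e-06) with no overlap, and it was 2.16 when forebrain and cortical spots were left out of the rest.

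Dlx5 and Dlx6, which promote osteoblast and chondrocyte differentiation, were both higher in bone spots. Dlx5 was at 301, 332, 263 and 284 CPM against 198, 229, 145 and 153 CPM (0.87, SE 0.093, adjusted p = 0.000458), and Dlx6 was at 88.6, 129, 116 and 91.7 CPM against 66.3, 92.0, 57.7 and 47.8 CPM (0.89, SE 0.12, adjusted p = 0.00115). Each was above the rest of its own area in 4 of 4 areas. With the smaller rest their differences were 1.45 and 1.43.

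The Msx genes, which act in skull bone and suture cells, were also higher in bone spots. Msx1 was at 123, 172, 131 and 134 CPM against 41.9, 60.5, 48.5 and 62.7 CPM (1.53, SE 0.084, adjusted p = 3.275e-05), and Msx2 was at 48.5, 32.9, 37.1 and 29.6 CPM against 16.4 to 19.6 CPM (1.12, SE 0.099, adjusted p = 0.000202). Dlx4 was at 4.85, 2.05, 3.399 and 2.22 CPM against 1.03 to 1.36 CPM (1.20, SE 0.24, adjusted p = 0.00603).

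Dlx1 was lower in bone spots, at 10.9, 4.76, 10.8 and 10.6 CPM against 29.7, 17.5, 13.99 and 18.7 CPM (-0.90, SE 0.24, adjusted p = 0.0203). With the smaller rest, where Dlx1 was at 12.96, 10.6, 9.20 and 10.4 CPM, the difference was -0.10 (adjusted p = 0.777). Dlx2 was at 12.1, 7.97, 29.5 and 12.9 CPM against 38.6, 24.6, 28.2 and 19.5 CPM (-0.63, SE 0.28, adjusted p = 0.106), below the rest in 3 areas and above it in E15.5 replicate 1. Without E15.5 replicate 1 the difference was -1.01 (adjusted p = 0.0205). It also passed, at -0.64 to -0.78, under library size without TMM, no filter on low counts, DESeq2 and a region score of 1.5, and with the smaller rest the difference was -0.04.

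Within bone the members were not evenly placed. Bone spots were divided after seeing the data into those above the nose (the side of the brain), those between nose and tongue (the side of the upper jaw) and those below the tongue (the side of the lower jaw). The landmarks were the olfactory and multiciliated epithelium spots of the nose and the skeletal muscle spots of the tongue, and the zones are described without a test. Msx1 was low above the nose, at 35.6, 26.2, 20.6 and 22.4 CPM, and high between nose and tongue, at 202, 208, 201 and 164 CPM, with 144, 177, 108 and 135 CPM below the tongue. Msx2 ran the other way, at 79.4, 64.5, 43.9 and 44.8 CPM above the nose and 21.3, 14.7, 26.2 and 20.05 CPM between nose and tongue, with no overlap between these 2 zones for either gene. Below the tongue Msx2 was at 36.1, 39.4, 51.0 and 34.8 CPM, above the nose-to-tongue zone in every area. In E14.5 replicate 1 these values rest on few counts, with 40 UMIs of Msx2 in the bone spots of all zones together.

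The Dlx pairs differed along the same axis. Dlx1 in bone spots was at 23.9, 7.26, 15.9 and 17.6 CPM between nose and tongue and at 0, 2.70, 2.49 and 4.86 CPM below the tongue. Dlx2 was likewise at 21.3, 11.7, 42.0 and 18.8 CPM and at 0, 5.08, 14.9 and 8.74 CPM, with higher measured values between nose and tongue. In E14.5 replicate 1 the bone spots of all zones together held 9 UMIs of Dlx1 and 10 of Dlx2. The values of 0 there rest on few counts, so the order of the zones in that area is uncertain for both genes. Dlx6, part of the code for lower jaw identity, was at 144, 156, 132 and 111 CPM below the tongue and at 77.2, 100.3, 123 and 75.4 CPM between nose and tongue, higher below the tongue in every area. Dlx3 ranged from 23.2 to 67.5 CPM over the 3 zones, and Dlx5 was at 210 to 298 CPM above the nose, 282 to 338 CPM between nose and tongue and 192 to 343 CPM below the tongue. Hand2, a lower jaw gene that acts downstream of endothelin signalling, was at 0 to 1.55 CPM, 20.05 to 43.1 CPM and 96.2 to 290.1 CPM in the 3 zones. It was not used to set them but was chosen after values were seen, so it is no independent check of the zones.

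**Figure D4:**
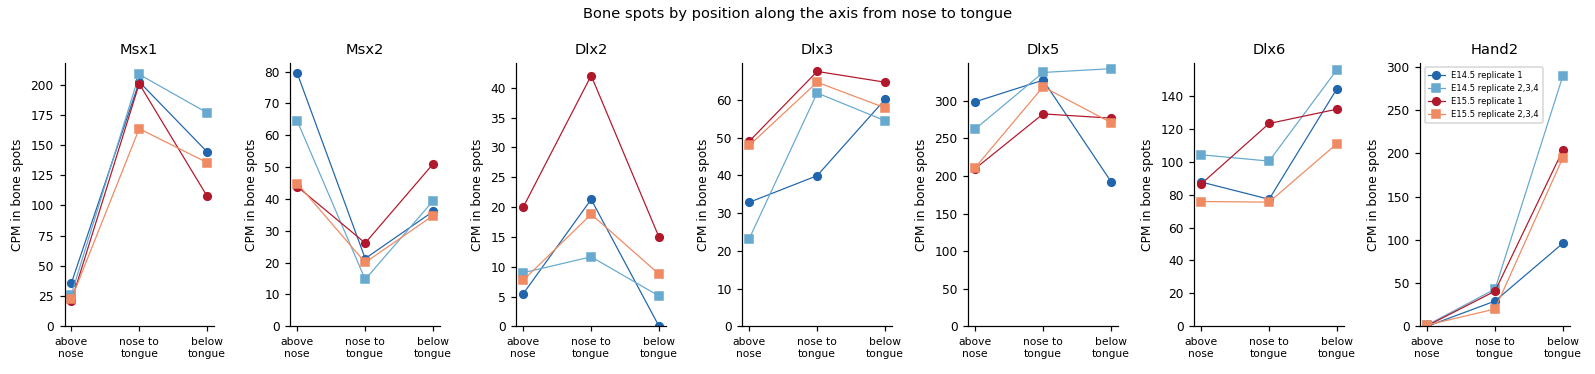
CPM of Msx1, Msx2, Dlx2, Dlx3, Dlx5, Dlx6 and, as a lower jaw gene, Hand2 (vertical axes) in bone spots above the nose, between nose and tongue and below the tongue, 1 point per capture area. Msx2 is lowest between nose and tongue (14.7 to 26.2 CPM) where Msx1 is highest (164 to 208 CPM), and Dlx6 is highest below the tongue in every area.

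Spots high in forebrain GABAergic markers divided the members into a high and a low group. All 8 members passed, against 75.5% of 13839 genes tested, with 4 higher against 35.4% of all genes and 4 lower against 40%, so that most genes, like the members, differed there. Dlx1 was measured at 83.1, 50.6, 58.5 and 96.7 CPM against 13.4, 10.2, 9.54 and 11.3 CPM in the rest (2.73, SE 0.12, adjusted p = 0.000324). Dlx2 was at 107, 62.8, 101 and 84.8 CPM against 17.5, 15.9, 21.5 and 13.3 CPM (2.43, SE 0.12). Both genes act early in the ventral progenitors, and both were lowest in E14.5 replicates 2,3,4.

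Dlx5 was at 546, 624, 536 and 480.3 CPM against 107, 176, 121 and 145 CPM (2.08, SE 0.13), and Dlx6 was at 188, 251, 201 and 169 CPM against 33.6, 70.0, 50.3 and 43.9 CPM (2.13, SE 0.12). All 4 of these genes had the same adjusted p of 0.000324 in the edgeR test and no overlap between forebrain spots and the rest. The antisense transcripts known at Dlx1 and Dlx6 were not among the genes listed, and how the probes treat strand is not given in the sources used here, so sense and antisense signal cannot be told apart.

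The other members were low in the forebrain. Msx1 was at 12.1, 9.66, 3.32 and 26.4 CPM in forebrain spots (-2.55, SE 0.38, adjusted p = 0.0019), Msx2 at 3.84, 3.24, 5.59 and 7.75 CPM (-2.07, SE 0.24, adjusted p = 0.000877) and Dlx3 at 2.37, 1.27, 1.75 and 5.66 CPM (-2.73, SE 0.35, adjusted p = 0.00114). For each the highest area was E15.5 replicates 2,3,4. Dlx4 had 3 UMIs in 670 forebrain spots, all in E14.5 replicates 2,3,4, so no fold is given for it. The count of 0 in the 3 other areas allows up to 0.447 to 0.887 CPM (3 UMIs of the total of these spots in an area, for counting error only), and Dlx4 was at 1.48 to 1.69 CPM in the rest. Without the 19 spots of E15.5 section B, a choice made after seeing the data, the differences were -3.37 for Msx1, -2.41 for Msx2 and -3.23 for Dlx3, and they were 2.80 for Dlx1 and 2.49 for Dlx2.

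Ordered over all 13 marker regions by the median of the areas, the highest region was tooth germ for Msx1, Msx2 and Dlx4, bone for Dlx3, and forebrain GABAergic for Dlx1, Dlx2, Dlx5 and Dlx6. Tooth, oral and bone spots followed each other for Msx1 with no overlap between neighbours. For Msx2, tooth spots (118 to 154 CPM) were separated from bone spots (29.6 to 48.5 CPM), which overlapped cartilage spots (24.1 to 41.2 CPM). For Dlx3, bone (38.8 to 62.2 CPM) and tooth (38.1 to 58.9 CPM) overlapped, and so did bone and tooth for Dlx4 and tooth and forebrain for Dlx2. For Dlx5 the forebrain stood clear of bone, and for Dlx6 the forebrain stood clear of bone, which overlapped olfactory epithelium spots (58.8 to 115 CPM). For Dlx1, choroid plexus spots came next after the forebrain, at 26.9 to 40.6 CPM in the areas that had such spots. The 52 of E14.5 also held 540 CPM of GABAergic markers and the 14 of E15.5 held 3285 CPM of bone markers and 16 UMIs of Dlx1, and the part of these tissues was not tested.

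The fall of each level with distance was steep for some members. Msx2 had a median over areas of 127 CPM in tooth spots, 35.7 CPM in spots 1 step away and 18.1 CPM 2 steps away. Msx1 declined more gradually, from 343 CPM to 262, 117 and 59.4 CPM at 1, 2 and 3 steps. Around bone, Dlx3 was at 56.7 CPM in bone spots, 25.9 CPM at 1 step and 10.3 CPM at 3 steps, whereas Msx1 was at 133, 125 and 82.0 CPM at 0, 1 and 2 steps. Dlx6 was at 43.0 CPM in tooth spots, 57.4 and 63.7 CPM at 1 and 2 steps, and 52.8, 43.2 and 40.1 CPM at 3, 4 and 5 steps. Spots at different distances share sections and libraries, these medians leave out spots in no section, and they are descriptions. The medians around tooth spots also leave out E15.5 section A, which had 3 tooth spots.

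**Figure D5:**
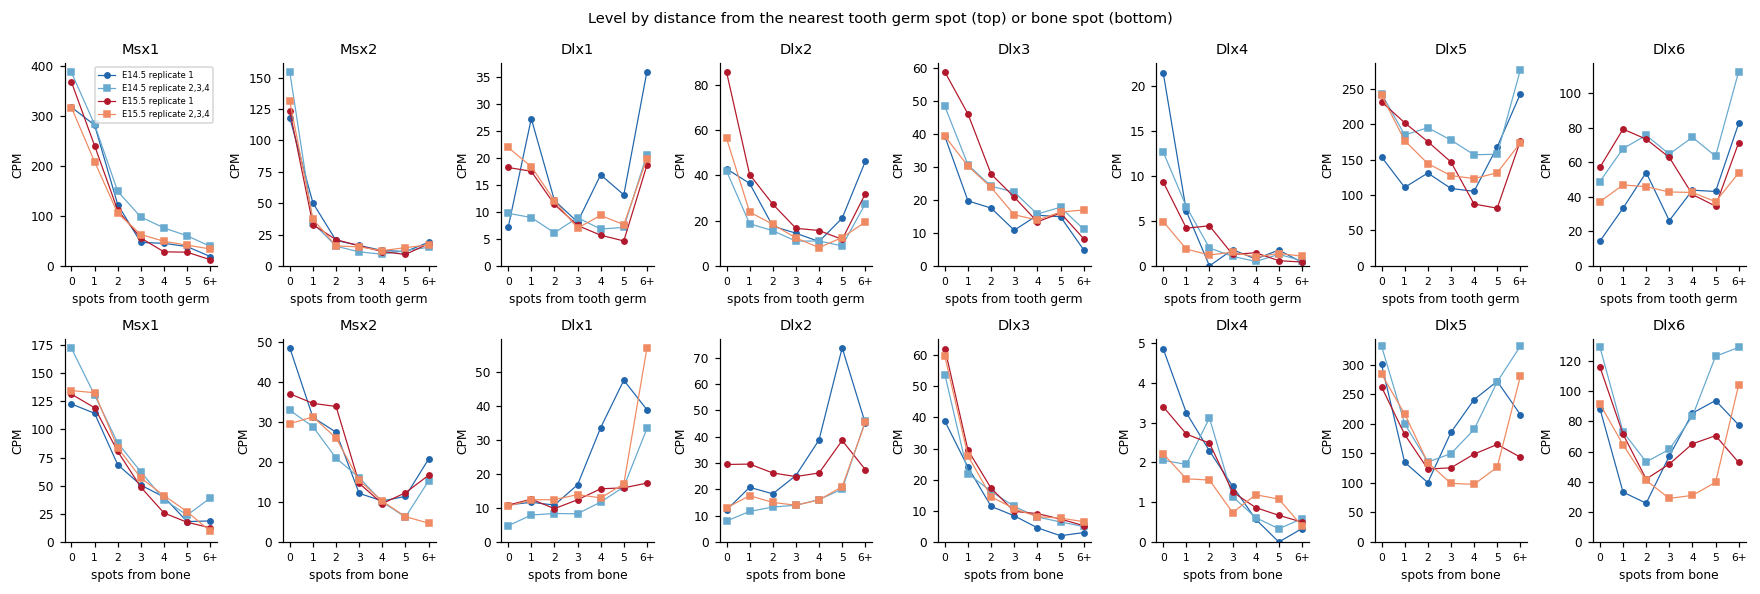
CPM of the 8 members (vertical axes) against the distance in spots (horizontal axes, 0 to 5, then 6 or more) from the nearest tooth germ spot (top) and from the nearest bone spot (bottom), 1 line per capture area. Msx2 falls from a median of 127 CPM to 35.7 CPM within 1 step of the tooth germ spots, and Dlx3 falls from 56.7 to 25.9 CPM within 1 step of bone. The top row leaves out E15.5 section A.

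Between E14.5 and E15.5, no member passed. Over all tissue spots 0 of 8 members passed against 0% of 15609 genes tested, with 930 genes at an unadjusted p under 0.05, and DESeq2 called 37 genes and 0 members. Dlx5 was at 203 and 240.4 CPM in the E14.5 areas and 156 and 170.0 CPM in the E15.5 areas (log2 difference -0.51, SE 0.24, edgeR adjusted p = 0.769). Dlx6 was at 67.5 and 96.2 CPM against 63.1 and 53.4 CPM (-0.56, SE 0.27, edgeR adjusted p = 0.769). For both genes the E14.5 areas were above the E15.5 areas without overlap, and the share of UMIs in forebrain and cortical spots was 52.2% and 22.6% at E14.5 and 22.9% and 10.1% at E15.5. Its part in these values was not tested.

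Within each marker region the stages were compared again. No member passed in bone (background 0% of 13370 genes, with 116 genes at an unadjusted p under 0.05 and 2 genes called by DESeq2), in oral mesenchyme (0.00781% of 12812 genes, 204 and 1) or in tooth spots (0.0847% of 11803 genes, 414 and 2). In forebrain spots 0 of the 7 members with enough counts passed against 0% of 12563 genes (273 and 0), and DESeq2 called 0 members in each region. The unadjusted p was under 0.05 for Dlx2 in bone spots (1.16, SE 0.47, edgeR adjusted p = 0.9999) and in tooth spots for Dlx1 (1.03), Dlx2 (0.67) and Dlx4 (-1.11), each with edgeR adjusted p = 0.999.

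The contrast between bone spots and the rest differed between the stages for 3 of 8 members, against 2.95% of 14259 genes tested. All 3 had the higher contrast at E15.5, against 2.32% of all genes in that direction. The level of Dlx2 in bone spots divided by that in the rest was 0.314 and 0.324 at E14.5 and 1.05 and 0.663 at E15.5 (log2 difference between stages 1.44, SE 0.26, edgeR adjusted p = 0.0251). For Dlx1 the ratio was 0.368 and 0.273 against 0.775 and 0.563 (1.23, SE 0.28, adjusted p = 0.0546), and for Dlx6 the difference was 0.58 (SE 0.14, adjusted p = 0.0770). In each case both E15.5 ratios were above both E14.5 ratios.

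Single areas and the makeup of the rest moved these values. With forebrain and cortical spots out of the rest, Dlx2 still passed (1.18, adjusted p = 0.0428), whereas Dlx1 (1.098, adjusted p = 0.111) and Dlx6 (0.18, adjusted p = 0.630) did not. Dlx1 did not pass without E14.5 replicates 2,3,4 (0.92, adjusted p = 0.310) or E15.5 replicate 1 (1.03, adjusted p = 0.216), and Dlx6 did not pass without E14.5 replicate 1 (0.49, adjusted p = 0.101), E15.5 replicate 1 (0.57, adjusted p = 0.465) or E15.5 replicates 2,3,4 (0.60, adjusted p = 0.479). Summed GABAergic markers in bone spots were 30.3, 26.2, 84.2 and 29.7 CPM, highest in E15.5 replicate 1, the area in which Dlx2 in bone spots was also highest. In E15.5 replicates 2,3,4 Dlx2 was at 12.9 CPM in bone spots, beside 12.1 and 7.97 CPM in the E14.5 areas. In the rest it was at 19.5 CPM, beside 38.6 and 24.6 CPM. The parts of the bone spots and of the rest in the difference between the ratios were not tested. Among the 10 forebrain partner genes 6 also had a higher bone contrast at E15.5, among them Nkx2-1 (3.98), Gad2 (1.88) and Lhx6 (1.17, also on the dental list), and their part in the Dlx result was not tested. No member passed the same comparison in oral mesenchyme (background 0.722%, 4 members at an unadjusted p under 0.05), tooth (1.05%, 5 members) or forebrain spots (0%, 1 member), and DESeq2 called 1, 0 and 0 members there. In oral mesenchyme, however, leaving out any single area gave 1 to 3 members, such as Dlx6 without E14.5 replicate 1 (0.94, edgeR adjusted p = 0.0191) and Msx1 without E14.5 replicates 2,3,4 (-0.99, adjusted p = 0.0531) or E15.5 replicate 1 (-0.63, adjusted p = 0.0903), and Dlx6 without E15.5 replicates 2,3,4 (1.02, adjusted p = 0.00833).

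The genes that work with the members were counted in lists chosen with earlier results known. In tooth spots 6 of 6 dental partners that were not markers were higher, against 15.2% of all genes, among them Pax9 (2.32), Bmp4 (1.98) and Lef1 (1.95), which encode a partner of Msx1, the BMP ligand of the tooth and a Wnt effector. Of the other lists in tooth spots, 1 of 6 jaw patterning genes was higher and 2 were lower, 2 of 7 skeletal regulators were higher and 2 lower, and 2 of 10 forebrain partners were higher and 8 lower. Of 11 BMP pathway genes 7 were higher in tooth spots and 7 were higher in bone spots (24.3% of all genes were higher there), where the BMP pseudoreceptor gene Bambi stood at 2.03, Bmp2 at 1.26 and the BMP target Id3 at 0.997. Of the other lists in bone spots, 4 of 6 skeletal regulators were higher and 2 lower, with Runx2, the osteoblast master regulator, at 2.58, and 4 of 7 jaw patterning genes were higher and 1 lower. Of the 8 dental partners in bone spots, 2 were higher, 1 was lower and 5 did not pass. In oral mesenchyme spots 6 of 7 dental partners were higher and 1 lower, and 5 of 11 BMP pathway genes were higher, against 16.2% of all genes. The other lists were mixed or lower there, with 2 of 6 jaw patterning genes higher and 1 lower, 2 of 7 skeletal regulators higher and 2 lower, and 2 of 10 forebrain partners higher and 8 lower.

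In forebrain spots all 7 forebrain partners that were not markers were higher, against 35.4% of all genes, with the ventral regulator Nkx2-1 at 3.47, and 9 of 11 BMP pathway genes were lower, against 40% of all genes, with the BMP target Id3 at -2.07 and the inhibitor gene Smad6 at -1.95. In bone spots 8 of 10 forebrain partners were lower, against 27.5% of all genes, and 1 was higher. Across stages within regions, Hand2 in tooth spots was the one partner gene that passed (-3.40, SE 0.53, edgeR adjusted p = 0.0028). Its level was 17.9 CPM in E14.5 replicate 1, 1182, 31.8 and 73.1 CPM in sections A, B and C of the other E14.5 area, and 15.3, 28.3 and 26.0 CPM in E15.5 replicate 1 and sections B and C, so that section A, whose 32 tooth spots lay in the lower jaw, stood far above all others. In those 32 lower jaw tooth spots Msx2 was at 308 CPM and Dlx5 at 336 CPM, beside 102 and 215 CPM in the tooth spots between nose and tongue of the same area. Section A had a median of 10037.5 UMIs per tissue spot, against 65616 in section B and 59411 in section C. Jaw position, section and depth therefore cannot be told apart in these values. The paralogue Msx3, a gene of the dorsal neural tube, had 27 UMIs in all and was too low to test.

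Across single spots the highest correlation among the members was that of Dlx5 with Dlx6. Pearson's r of log2(UMIs per 10000 UMIs + 1), averaged over the 4 areas, was 0.61 for that genomic pair (0.44 to 0.71 by area), 0.39 for Dlx1 with Dlx2 (0.27 to 0.52) and 0.17 for Dlx3 with Dlx4. Among genes that are not neighbours it was 0.41 for Dlx2 with Dlx5, 0.37 (0.15 to 0.51) for Msx1 with Dlx3, 0.32 (0.21 to 0.38) for Msx1 with Msx2 and 0.21 for Msx1 with Dlx4. Spots of an area share a library and differ in depth. The members also differ in detection, with UMIs in 5127 spots for Dlx5, 3939 for Dlx6, 2110 for Dlx3 and 338 for Dlx4. The part of detection in the order of these r values was not tested. Among 13025 genes, those with the highest r were Sostdc1 (0.51), Runx2 (0.50) and Frzb (0.47) for Msx1, Shh, Sp6 and Runx2 (0.33, 0.33 and 0.31) for Msx2, Sp7, Phospho1 and Alpl (0.47, 0.47 and 0.46) for Dlx3, and Sostdc1, Dbx2 and Sp6 (0.20, 0.19 and 0.19) for Dlx4. For the forebrain members they were Nrxn3, Gad2 and Slc18a2 (0.50, 0.49 and 0.46) for Dlx1, Gsx2, Gad2 and Slc18a2 (0.46, 0.45 and 0.44) for Dlx2, Gad2, Nrxn3 and Pou3f4 (0.50, 0.47 and 0.46) for Dlx5, and Gad2, Nrxn3 and Zcchc12 (0.51, 0.48 and 0.43) for Dlx6. Sostdc1, Shh, Sp6, Sp7, Alpl, Gad2 and Gsx2 are themselves markers of the regions used here.

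The tissues contributed unequally to the UMIs of each gene. Tooth spots held 1.81% to 3.98% of all UMIs by area but 12.5% to 26.2% of those of Msx1 and 10.5% to 31.6% of those of Dlx4. Bone spots held 5.34% to 12.7% of all UMIs and 23.5% to 39.7% of those of Dlx3. Forebrain GABAergic spots held 7.53% to 21.9% of all UMIs and 36.3% to 63.4% of those of Dlx1 and 30.3% to 63.2% of those of Dlx2.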

How the data were processed

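UMI counts per gene and spot were used as the authors deposited them, raw and not normalized. Per the file headers, Space Ranger 1.3.1 made both replicate 1 areas and 2.0.0 the others, and the submitters' processing notes name the build mm10. The probe set is not given in the sources used here. After 19 barcodes off tissue and 12 tissue spots without counts were left out, 6357 spots remained, 88 of them in no section. The depth was 15438992 to 109127953 UMIs per area.

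A marker's CPM was divided by its section mean (capped at 10) and averaged over its list. A spot took the list with the highest score, at least 2, with at least 3 markers above the section mean. UMIs were summed per region and area and tested with edgeR 4.0.16 (R 4.3.3; TMM, filterByExpr, quasi-likelihood F test), with stage as the term or with the area as a block for a region against the rest. Adjusted p under 0.1 passed, after Benjamini-Hochberg. Each SE was derived from the log2 difference and its F statistic, whose dispersion estimate draws on all genes. Levels are summed UMIs as CPM, and limits of a count of 0 cover counting error only. On simulated data with 200 changed genes, 98% were recovered for stage over all spots (15588 genes), 94.5% within bone (13333), 100% for bone against the rest (13981) and 85% for its difference between stages (14202), with false shares of 9.3%, 8.3%, 6.1% and 7.6%. The changed genes were well counted, with changes larger than those of the members between stages over all spots. All genes had the same set spread, and areas differed in depth only. These shares therefore do not give the power of the real comparisons for the members. DESeq2 1.42.0 was an alternative.

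The members and all lists were chosen with earlier results of these data known. All 8 members are named. At most 6 partner genes per comparison are named, those with the smallest adjusted p among the genes that passed, and some of these are not reported here. Exceptions are the zones and Hand2 beside them, chosen after values were seen. The 3 genes most like each member by Pearson's r are named among 13025 genes with at least 500 UMIs. The replicate numbers of the labels were checked as pairs: the deviations of same-numbered areas correlated at r = 0.246 over 15609 genes. Replicate 1 areas share the Space Ranger version and the layout of 1 section, and the labels name no shared litter, batch or day, so with 2 numbers the areas were not taken as pairs.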

Additional observations from a re-analysis of the deposited data

Results flagged for a closer look

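Among 72 sets of 4 sections examined, 10 had a section far from the other 3, where chance gives about 1 in 20. Of these, 4 concern the 19 spots of E15.5 section B that passed the forebrain score but held 181 CPM of GABAergic markers. Msx1 was there at 147.6 CPM against 1.536 to 4.132 CPM in the other sections, Msx2 at 30.61 CPM against 2.361 to 5.586 CPM, Dlx3 at 24.31 CPM against 1.18 to 2.304 CPM and Dlx5, the low one, at 261.1 CPM against 507 to 536.4 CPM. In tooth spots, Dlx1 was at 23.59 CPM in E14.5 section C, which had 8 such spots, against 6.775 to 7.482 CPM, and Dlx6 was at 14.3 CPM in E14.5 replicate 1 against 44.83 to 50.14 CPM. Dlx4 stood apart on few UMIs, in bone spots at 4.854 CPM in E14.5 replicate 1 and 3.399 CPM in E15.5 replicate 1, and in forebrain spots at 1.684 CPM in E14.5 section A. Dlx5 over all spots was at 197 CPM in E15.5 section A against 154.5 to 158.3 CPM.

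The bone contrast differed between stages for Dlx2 (1.442), Dlx1 (1.23) and Dlx6 (0.58) by the test of that difference, on the log2 scale.

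The 19 barcodes off tissue, used in no comparison, held UMIs of 7 members above the limit of 3 UMIs that a count of 0 allows. These were 7 of Msx1, 6 of Msx2, 6 of Dlx1, 5 of Dlx2, 6 of Dlx3, 68 of Dlx5 and 24 of Dlx6, with none of Dlx4, among 562491 UMIs.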

How the results depend on the processing

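Depth was lowest in E14.5 replicate 1, whose tooth spots numbered 20, and Dlx4 rested on few UMIs in every region. Over the alternatives run, 0 members passed between stages over all spots and within each region. Members that passed numbered 6 to 8 in bone, 5 to 8 in tooth and 8 in forebrain spots against the rest. In oral mesenchyme spots the 3 members became 1 without the area block and 1 to 4 without single areas. For the difference of the bone contrast between stages, the 3 members became 1 under library size without TMM, DESeq2, adjusted p under 0.05 and the rest without forebrain and cortical spots, and 1 to 2 without single areas. For oral mesenchyme, 0 became 4 without the filter on low counts, 1 under DESeq2, 1 with that smaller rest and 1 to 3 without single areas. For tooth, 0 became 2 without the filter, 1 at a region score of 3 and 2 with only sections that hold the markers, and stayed 0 to 0 without single areas. With the smaller rest, 2 values past the threshold reversed, Dlx2 in oral mesenchyme spots from -0.10 to 0.52 and Dlx1 in tooth spots from -0.09 to 0.67, and the cause was not tested. Of 1227 alternative values 83 had the opposite sign, these 2 included, and 21 of 27 members' calls were kept in every alternative.

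The replicate block gave 0 members for stage in every comparison. It called 0 genes over all spots, 17 in bone spots (0 without it), 1 in oral mesenchyme, 16 in tooth (10 without it) and 17 in forebrain spots (0 without it).

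Counts of all genes that moved over 1.5 times were, for stage, 0 to 78 over all spots, 0 to 17 in bone, 0 to 16 in oral mesenchyme, 2 to 164 in tooth and 0 to 172 in forebrain spots, the highest in tooth without E14.5 replicate 1 and over all spots and in forebrain without E15.5 replicate 1. Against the rest, 7187 in bone became 3620 without the area block, 5250 in oral mesenchyme became 1832 without E14.5 replicates 2,3,4, and 4556 in tooth became 2626 without the block. For the difference between stages the ranges were 204 to 1111 in bone, 40 to 1079 in oral mesenchyme, 50 to 272 in tooth and 0 to 2 in forebrain spots, with the 3 highest without the filter.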
